A study of Mus musculus with 8 samples.

Results

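The change between the DP1 and DP2 stages of normal thymocyte development was measured in wild-type (WT) mice, over the 12032 genes that reached at least 1 FPKM in WT DP1 or WT DP2, out of 23278 genes in the table of both groups. FPKM counts sequenced fragments relative to the length of the transcript and to the number of fragments mapped in the library. Double-positive (DP) thymocytes carry both CD4 and CD8, and both stages were sorted by flow cytometry from C57BL/6 thymus as GFP+CD4+CD8+ cells: DP1 cells were CD5lo and TCRblo, and DP2 cells were CD5hi and TCRbint. The series holds 8 samples in 4 groups of 2: WT control DP1, WT control DP2, Hdac3KO DP1 and Hdac3KO DP2. WT control animals were Hdac3+/+, and Hdac3KO animals carried Hdac3F/F with the LCK-Cre transgene, whose Cre recombinase is expressed in developing T cells. All 4 groups were gated on GFP, whose construct is not given in the sources used here, nor are the animals' age and number, or whether the Hdac3+/+ animals carried the Cre. Libraries were made from pooled, rRNA-depleted total RNA with a stranded SMARTer kit. The labels do not say that the 2 samples of a group came from separate animals, so the p-values may measure technical spread. The table gives 1 FPKM per gene and group, so no value here has an SD over samples.

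The DP stage is where the newly rearranged T cell receptor (TCR) is tested on the peptide-MHC complexes of the thymic cortex. Pre-selection DP cells are small, express the recombinase and depend on the survival factor Bcl-xL, and many have divided shortly before. TCR engagement induces immediate early transcription factors through the ERK, calcium and NF-kB pathways, raises surface CD5, CD69 and the TCR, and starts positive selection, after which cells turn on BCL2 and the IL-7 receptor and choose the CD4 or CD8 lineage.

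Many genes known from TCR engagement and selection were higher in DP2. Cd53, a tetraspanin of lymphocytes, stood at 3.11 FPKM in DP1 and 127 in DP2. Itm2a, a membrane protein induced in selection, stood at 22.0 and 350, and the immediate early nuclear receptor Nr4a3 at 0.564 and 20.2. Most genes of DNA replication and mitosis were lower: the replication factor Mcm10 went from 37.8 to 5.40 FPKM, the origin-loading factor Cdc6 from 29.7 to 4.70, and the DNA ligase Lig1 from 84.2 to 12.3. A gene was called where the q-value in the authors' deposited table was 0.05 or less. Of 10851 genes tested, 603 (5.56%) were called higher in DP2 and 1818 (16.8%) lower. A change of 2-fold or more was seen in 443 and 1159 of them. Of the 12032 members, 10836 were tested, and 15 further tested genes were under 1 FPKM in both groups. Those closest to the limit of membership were Ncf1, with a higher value of 1.0001 FPKM, and, outside it, Olfr18, at 0.9996 FPKM.

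**Figure D1:**
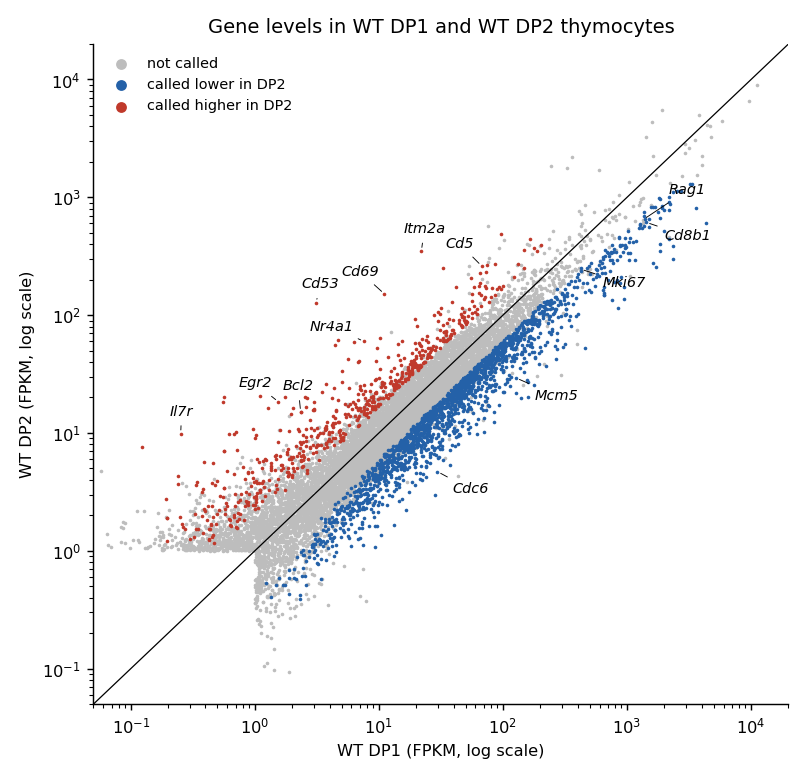
Each point is a gene with at least 1 FPKM in WT DP1 or WT DP2 and no value of 0, with its level in DP1 on the x axis and in DP2 on the y axis (FPKM, both log scales); the line marks equal levels. The 1812 plotted genes called lower form a broad band under the line, while the 599 called higher include Il7r, Egr2, Cd53 and Itm2a far above it.

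The change followed transcript length, so counts and medians of lists are given as deposited and after removal of that trend, and a gene said to have risen or fallen kept its call after removal unless the text says otherwise. Among 5791 genes that reached 10 FPKM in both groups, the median log2 ratio of DP2 to DP1 was -0.33. In the tenth of genes with the shortest transcripts (median 744 nt) it was -0.81, and 38.0% of them were called lower. In the tenth with the longest (median 8218 nt) it was 0.10, and 4.66% were called lower. The same deciles in Hdac3KO cells ran from 0.03 to -0.10. A smooth curve on the length of the longest annotated transcript was subtracted, and each adjusted value was compared with its standard error (SE), obtained from the log2 ratio and the deposited p-value. After this length adjustment 907 genes (8.52% of 10641) were called higher and 500 (4.7%) lower, so the share of higher genes among the calls went from 603 of 2421 to 907 of 1407. Of the 603 genes called higher, 531 remained called, and of the 1818 called lower, 492 remained. The subtracted curve also takes out the negative shift of the median gene. Centring on the median gene alone, without length, left 600 of the 603 and 699 of the 1818. It called 1181 genes higher in all. The separate parts of length and of the median shift in the lost calls were not tested. A trend with GC content was left: after length adjustment the median log2 change was 0.37 in the tenth of genes with the lowest GC (39.1%) and -0.21 in the tenth with the highest (58.6%). The SE of a log2 change had a median of 0.34. For the 650 genes at the smallest p in the authors' deposited table, 5e-05, the SE is an upper bound, written "up to". The tests that use this SE can miss such genes. A call that 1 of them loses after adjustment, or lacks between genotypes, therefore does not show that a change is absent.

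**Figure D2:**
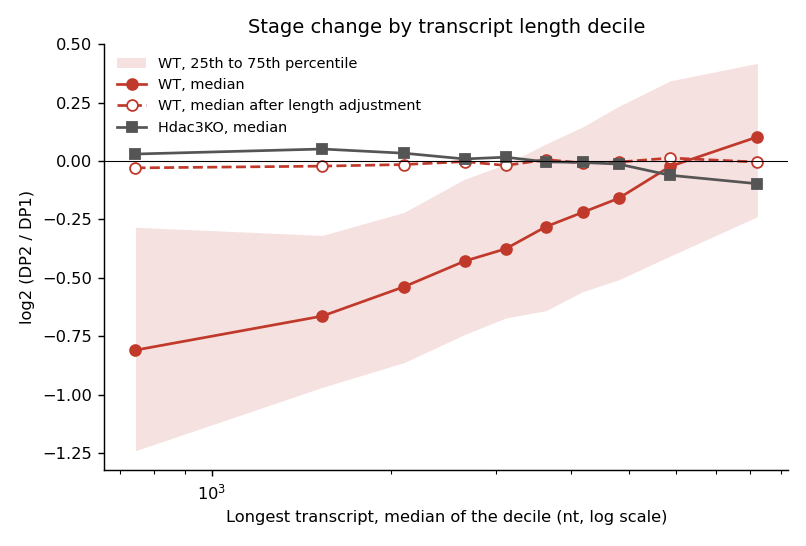
Median log2 ratio of DP2 to DP1 (y axis) in 10 groups of genes ordered by the length of their longest transcript (x axis, nt, log scale), for genes that reached 10 FPKM in both WT groups; the band runs from the 25th to the 75th percentile of WT genes. The WT median climbs from -0.81 to 0.10 with length and lies near 0 after adjustment (dashed), while the Hdac3KO median stays between -0.10 and 0.05.

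The sort was visible in the RNA only in part. Cd5, the surface protein used to separate the stages, was at 67.2 FPKM in DP1 and 262 in DP2 (log2 change 1.96, SE up to 0.48), which the gate fixes and which is no independent result. Cd4 was lower in DP2 (409 and 198 FPKM), as was the CD8 beta chain Cd8b1 (1427 and 613). Both lost the call with the length trend removed (length-adjusted log2 changes of -0.70 and -0.56). The CD8 alpha chain Cd8a (783 and 453) and the CD3 chains Cd3e (416 and 289), Cd3d (180 and 153) and Cd3g (773 and 667) were not called. Transcripts of the TCR constant regions were not analysed here.

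Both groups had the defining transcripts of DP cells. All 10 of the fixed DP markers were at 10 FPKM or more in both groups, and Rag1, the recombinase, stood at 1353 FPKM in DP1 and 648 in DP2 and was not called. The 10 markers summed to 7369 and 3470 FPKM, and all had lower values in DP2. As deposited 6 were called lower, and 0 after length adjustment. Markers of other cell types and stages were at various levels. The B cell factor Pax5 was at 0.115 and 0.373 FPKM, the summed level of the B cell list was 11.4 FPKM in DP1 and 11.2 in DP2, mostly Cd79b. Ighm was not found under this symbol and is left out of this sum. The 8 regulatory T cell markers summed to 48.0 FPKM in DP1 and 119 in DP2, mostly Ikzf2 (19.6 to 92.3), the 1 of 4 tested that was called, while the defining factor Foxp3 was at 0.216 and 0.661. The 11 markers of the earlier double-negative stage summed to 65.0 and 229, of which Hhex gave 54.8 and 208; Hhex and Il7r were called higher, and Kit was at 0.573 and 0.398. The 10 markers of mature single-positive thymocytes summed to 96.9 and 133; Il7r, Cd40lg and Ccr7 were called higher out of 6 tested. Of 12 fibroblast and endothelial markers, Pecam1 alone exceeded 1 FPKM. The gamma-delta T and NK cell markers summed to 1.63 and 4.26 FPKM over 9 of 12 genes. Trdc, Tcrg-C1 and Tcrg-C2 were not found under these symbols. The 1 tested member, Il2rb (0.152 and 0.906 FPKM), was called higher as deposited and after length adjustment. The erythroid list summed to 1.83 and 2.15 FPKM over 5 of its 9 genes. Its globin genes Hba-a1, Hbb-bs, Hbb-bt and Hbb-b1 were not found under these symbols, so this sum leaves them out. The myeloid list summed to 90.9 and 71.1, of which Cst3 gave 77.2 and 45.8. Of its 6 tested members 3 had higher and 3 lower values in DP2, and 1 was called: the antigen-presentation chain Cd74 rose from 1.59 to 6.35 FPKM. The MHC class II chain H2-Ab1 stood at 3.08 and 5.18 and was called higher after length adjustment, and Lyz2 (0.756 and 2.74) was not tested. Lyz1 and S100a8 were at 0 in both groups. The thymic epithelial list summed to 120 and 86.5 FPKM, of which Ctsl gave 99.6 and 68.1, and Krt5, Krt14 and Foxn1 were at 0 to 0.317. Of its 4 tested members 1 was called lower in DP2 as deposited, and 0 after length adjustment. The part of any of these cells in the changes described here was not tested. In sorted populations a change in the share of a cell type and a change in RNA per cell cannot be told apart. Y-linked genes were expressed in both WT groups and Xist was not (0.106 and 0.237 FPKM). Ddx3y rose from 64.5 to 154 FPKM, Uty from 31.3 to 61.5 and Eif2s3y from 46.8 to 99.2, while Kdm5d (22.6 and 33.7) was not called.

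**Figure D3:**
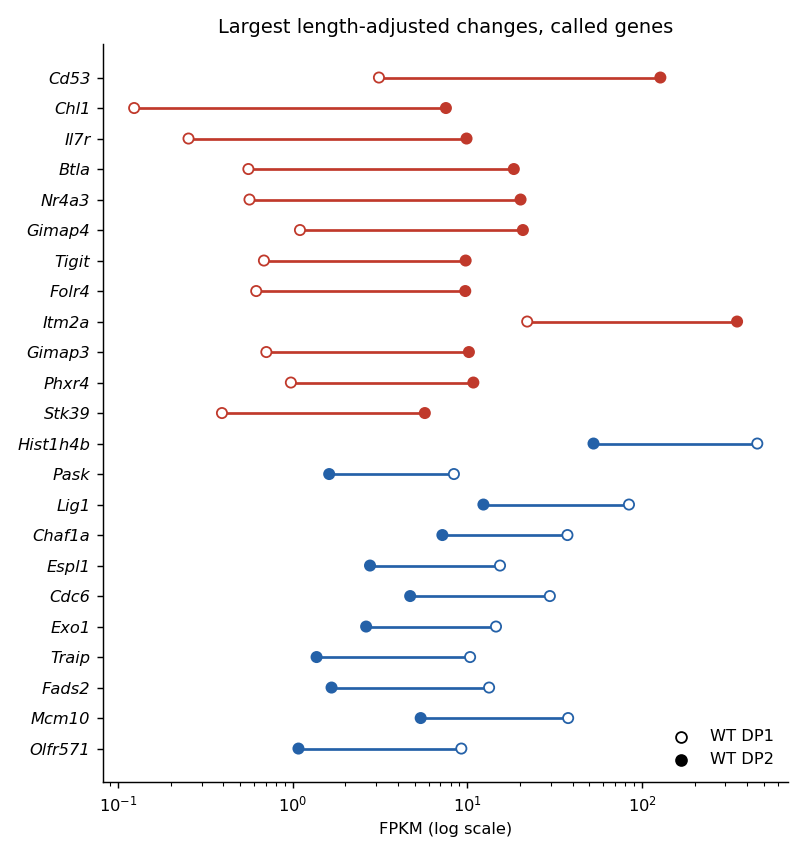
FPKM (x axis, log scale) in WT DP1 (open) and WT DP2 (filled) for the called genes with the largest length-adjusted changes, 12 higher in red and 11 lower in blue. Cd53 goes from 3.11 to 127 FPKM and Mcm10 from 37.8 to 5.40.

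The 12 largest length-adjusted increases were in Cd53, Chl1, Il7r, Btla, Nr4a3, Gimap4, Tigit, Folr4, Itm2a, Gimap3, Phxr4 and Stk39. Their length-adjusted log2 changes ran from 5.95 for Cd53 to 4.15 for Stk39. Most started near or under 1 FPKM in DP1. Il7r, the alpha chain of the IL-7 receptor, was at 0.253 FPKM in DP1 and 9.88 in DP2, the inhibitory receptor Btla at 0.556 and 18.4, and the inhibitory receptor Tigit at 0.683 and 9.77. Chl1, a cell adhesion molecule best known in neurons, was at 0.123 and 7.53. Folr4, a receptor of the folate receptor family known on regulatory T cells, was at 0.617 and 9.72, and the kinase Stk39, a regulator of ion cotransporters, at 0.393 and 5.70. The SE of these 12 log2 changes ran from up to 0.95 for Gimap3 to 2.01 for Il7r. Cd40lg, the ligand of CD40, was listed at 0 in DP1 and at 24.0 FPKM in DP2 and was called, with no finite ratio. Of the 12 largest decreases, 11 are named here: Olfr571, Mcm10, Fads2, Traip, Exo1, Cdc6, Espl1, Chaf1a, Lig1, Pask and Hist1h4b, with length-adjusted log2 changes from -2.997 to -2.26.

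Of 18 tested immediate early genes of receptor signalling 7 rose and 1 fell, with a median log2 change of 0.68 (1.13 length-adjusted) against -0.27 (0.04) over all tested genes. Egr2, a zinc finger factor needed in selection, rose from 1.55 to 18.4 FPKM (log2 change 3.57, SE up to 0.88). Egr1 rose from 14.3 to 57.2 FPKM and the orphan nuclear receptor Nr4a1, also known as Nur77, from 7.58 to 59.8. Nr4a2 rose from 0.302 to 1.26 FPKM. The Egr co-regulators moved too, Nab2 from 10.1 to 63.7 FPKM and Nab1 from 11.2 to 24.7. Egr3 (3.84 and 6.21) was not called. Of the AP-1 components, Jund fell from 69.1 to 31.7 FPKM, a call that was lost after length adjustment (-0.51), and Jun (31.6 and 19.9), Fos (2.20 and 4.60) and Junb (21.7 and 27.1) were not called. With the length trend removed Fos, Junb and Ier2 were called higher, which made 10 members higher and 0 lower.

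Genes induced in positive selection gave the largest median of the 34 pathway lists. Of 24 tested members 16 rose and 0 fell (18 and 0 length-adjusted), the median log2 change was 2.17 (2.37 length-adjusted), and 23 of the 24 had a higher value in DP2. The deposited median was 1.41 over members that reached 5 FPKM in either group, and 1.26 with a pseudocount of 1 FPKM. Cd69, the early activation antigen, rose from 11.05 to 152 FPKM. The adhesion receptor Cd2 rose from 96.9 to 493 FPKM, the costimulatory receptor Cd28 from 56.4 to 150 and Hivep3, a zinc finger factor also called Schnurri-3, from 5.05 to 33.9. Tagap, a regulator of thymocyte migration, rose from 0.386 to 3.37 FPKM. Ptpn7 (93.7 and 82.2) was the member whose value was lower in DP2. Irf4 (1.05 and 1.499 FPKM) was not tested and Slamf6 (65.2 and 70.6) was not called.

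The CD4 and CD8 lineage lists differed in their leading genes. Of 14 tested CD4 lineage regulators 5 were higher and 1 lower (4 and 0 length-adjusted), with a median log2 change of 0.16 (0.24). Tox, a factor needed for CD4 lineage development, rose from 20.3 to 80.7 FPKM, its relative Tox2 from 0.808 to 5.17, Gata3 from 23.0 to 40.3 and Lef1 from 70.6 to 136. Zbtb7b, which encodes the CD4 lineage determinant ThPOK, stood at 0.181 and 1.02 FPKM and was not called. Of 8 tested CD8 lineage genes 1 rose and 3 fell as deposited, while 2 were higher and 0 lower after length adjustment. The 1 that rose was Il2rb, from 0.152 to 0.906 FPKM. It was under 1 FPKM in both groups, so it was tested but lies outside the member genes. Gzma, granzyme A, stood at 74.5 and 19.7 FPKM and Mxd4 at 200 and 121, and the calls of these 2 and of Cd8b1 were lost after adjustment (-1.10, -0.57 and -0.56). The deposited median of this list was -0.25, and -1.01 over members that reached 5 FPKM. Runx3, the CD8 lineage factor, was at 3.48 and 4.25 and was not called. Among E proteins and their inhibitors, Id2 rose from 3.47 to 22.4 FPKM, Id3 stood at 34.2 and 37.1 and was called only after length adjustment, and the E protein Tcf3 fell from 78.2 to 45.7 before it (-0.40 after).

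Of 20 tested inhibitory and costimulatory receptors 10 rose and 0 fell (13 and 0 length-adjusted), with a median log2 change of 1.22 (1.71). The deposited median was 0.47 over the members that reached 5 FPKM in either group. The list includes Cd5, which the gate selected. Pdcd1, which encodes PD-1, rose from 2.63 to 19.8 FPKM, the activating adhesion receptor Cd226 from 6.26 to 58.7, and Icos from 2.59 to 10.9. Cd160 rose from 0.825 to 4.07 and Tnfrsf9, or 4-1BB, from 0.242 to 3.69. Lag3 (2.80 and 1.66), Tnfrsf18 (19.3 and 13.3), Cd96 (86.2 and 98.5) and Slamf1 (47.6 and 60.5) were not called.

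Signalling components around the TCR changed in both directions as deposited, while after length adjustment the called ones were all higher. Of 40 proximal TCR signalling genes 6 rose and 4 fell (6 and 0 length-adjusted), and the median log2 change was 0.00 (0.32 length-adjusted). Over all tested genes 5.56% were called higher and 16.8% lower (8.52% and 4.7% length-adjusted). The calcium channel subunit Orai1 rose from 2.34 to 5.83 FPKM, the thymocyte signalling protein Tespa1 from 81.0 to 169, the Src-family kinase Fyn from 19.0 to 40.2 and the protein kinase C isoform Prkcq from 66.9 to 119. Lck, the kinase that phosphorylates the TCR chains, fell from 666 to 358 FPKM, the adaptor Lat from 493 to 260, Grb2 from 39.5 to 21.6 and the calcium sensor Stim1 from 47.2 to 25.5. These 4 decreases were not called after length adjustment, where Lck stood at -0.39 and Stim1 at -0.69. Zap70 (61.8 and 62.6), Themis (318 and 418) and Plcg1 (71.3 and 65.9) were not called. Of 16 feedback inhibitors of MAP kinase signalling 5 rose and 0 fell (7 and 0 length-adjusted, median 0.46 and 0.78): the ERK phosphatases Dusp6 (8.30 to 17.2 FPKM) and Dusp2 (16.7 to 28.9), the Ras inhibitors Rasa1 (14.97 to 29.3) and Rasa2 (20.5 to 35.0), and Spred1 (9.81 to 17.6). Of 19 NF-kB genes 6 rose and 0 fell (7 and 0 length-adjusted, median 0.31 and 0.75). The subunits Relb (1.34 to 5.29 FPKM), Rel (5.90 to 13.9) and Nfkb2 (7.61 to 14.4) rose, as did the atypical IkB proteins Nfkbid (5.37 to 14.4) and Nfkbiz (5.64 to 17.1), while Rela (22.4 and 16.8) and Nfkbia (120 and 89.2) were not called.

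Among maturation genes the Gimap GTPases and the IL-7 receptor rose, while S1pr1 and Klf2, which direct egress from the thymus, were low in both groups. Of 27 tested members 9 rose and 3 fell, or 13 and 1 after length adjustment, with a median of 0.05 (0.81). The Gimap GTPases, which act in lymphocyte survival, included 6 called genes. Gimap4 rose from 1.10 to 20.8 FPKM, Gimap3 from 0.705 to 10.2, Gimap8 from 31.8 to 115, Gimap7 from 12.4 to 33.7, Gimap5 from 6.83 to 16.1 and Gimap6 from 204 to 391. Gimap1 (69.6 and 46.5) and Gimap9 (199 and 202) were not called. S1pr1 stood at 0.0713 and 0.211 FPKM and was not tested, and Klf2 at 1.28 and 0.874 and was not called. Nrp1, neuropilin-1, fell from 19.8 to 5.97 FPKM. Of 21 homing receptors 2 rose and 4 fell as deposited, while 4 were higher and 1 lower after length adjustment. Ccr4, a chemokine receptor of selected thymocytes, rose from 4.72 to 62.0 FPKM, and Sema4a from 0.493 to 3.89, while Ccr9 (236 and 373) was not called. The cortical retention receptor Cxcr4 fell from 158 to 90.6 FPKM, but its length-adjusted change was -0.22 and not called. Plxnd1, a semaphorin receptor that acts in thymocyte migration, fell from 78.3 to 39.2 and kept its call (-1.01). The medullary homing receptor Ccr7, counted among the mature thymocyte markers, rose from 1.48 to 3.63 FPKM.

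Among 21 cytokine receptor chains 5 rose and 2 fell (6 and 0 length-adjusted, median 0.14 and 0.28). The 5 include Il2rb, which was under 1 FPKM in both groups. Il17rb, a chain of the IL-25 receptor, rose from 6.86 to 40.7 FPKM and Il6st, the gp130 chain, from 48.4 to 91.6. Ifngr1 fell from 236 to 124 FPKM and Il10ra from 6.30 to 3.15, and both were not called after length adjustment. Of 19 JAK, STAT and SOCS genes 2 rose and 2 fell (2 and 1 length-adjusted). These counts are near the shares over all tested genes, 5.56% higher and 16.8% lower (8.52% and 4.7% length-adjusted). Jak2 rose from 17.1 to 34.2 FPKM and Socs5 from 1.54 to 4.08, and Socs3 fell from 6.85 to 2.21. Socs1, an inhibitor of cytokine signalling, fell from 43.5 to 20.4, with a length-adjusted change of -0.71 that was not called.

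BCL2 family genes changed in opposite directions. The anti-apoptotic Bcl2 rose from 2.34 to 15.04 FPKM (log2 change 2.68, SE up to 0.66), and Bcl2l1, which encodes Bcl-xL, fell from 105 to 35.9 (-1.54, SE up to 0.38). Both kept their calls after length adjustment, at 2.66 and -1.11. Mcl1 (85.1 and 75.5) was not called. The pro-apoptotic Bcl2l11, which encodes Bim, rose from 14.05 to 31.7 FPKM, and Bid fell from 22.0 to 6.95. Of 19 tested cell death genes 2 rose and 6 fell (3 and 2 length-adjusted), with a median of -0.35 (-0.05). The decreases of Bad (13.5 to 3.83), Bmf (20.3 to 11.1) and Bak1 (18.3 to 9.43) were not called after length adjustment.

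Genes of the DP stage and of Notch signalling were lower in DP2. Of 28 DP stage genes 14 fell and 1 rose, or 5 and 1 after length adjustment, with a median log2 change of -0.86 (-0.50). The terminal transferase Dntt fell from 2195 to 783 FPKM and Rag2 from 181 to 93.2. Their length-adjusted values, -0.97 and -0.65, were not called. The cystine transporter Slc7a11 (15.1 to 6.11), Endou (315 to 100), the water channel Aqp11 (97.8 to 49.7), Plxnd1 and Bcl2l1 kept their calls. Ly6d, a surface antigen of early lymphocytes, fell from 222 to 37.4 FPKM (length-adjusted -1.62, not called). Lef1 was the member that rose. Of 10 Notch and pre-TCR genes 6 fell and 0 rose, or 3 and 0 after adjustment. Notch1 fell from 32.5 to 11.7 FPKM, Notch3 from 6.38 to 1.43, and the Notch target Dtx1 from 3.43 to 1.18. The pre-TCR alpha chain Ptcra fell from 41.6 to 10.4 and Myc from 6.50 to 3.19, and the length-adjusted values of these 2, -1.28 and -0.55, were not called.

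**Figure D4:**
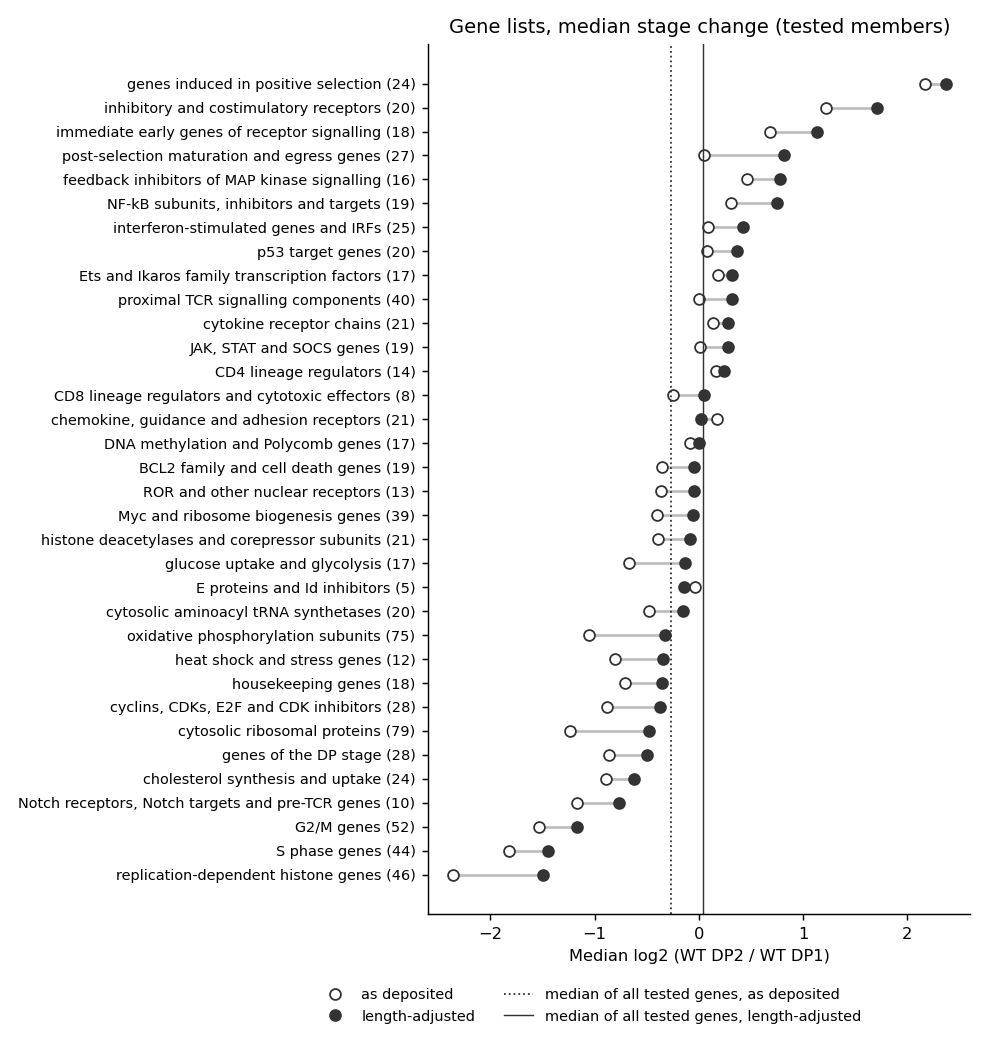
Median log2 ratio of WT DP2 to WT DP1 (x axis) over the tested members of each of 34 gene lists (number in parentheses), as deposited (open) and length-adjusted (filled); vertical lines mark the median of all tested genes. Selection genes lie highest, at 2.17 and 2.37, and replication-dependent histone genes lowest, at -2.36 and -1.50; ribosomal protein genes move from -1.24 to -0.48 with the adjustment.

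Cell cycle genes fell together. Of 44 S phase genes 41 fell and 0 rose (31 and 0 length-adjusted), with a median log2 change of -1.82 (-1.44). Beside Mcm10, Cdc6 and Lig1, the exonuclease Exo1 fell from 14.6 to 2.63 FPKM, the maintenance methylation factor Uhrf1 from 157 to 27.9 and the uracil glycosylase Ung from 9.29 to 1.63. Casp8ap2, at 53.6 and 62.3, was the S phase gene whose value was higher in DP2. Of 52 G2/M genes 41 fell and 0 rose (30 and 0), with a median of -1.54 (-1.17). Birc5, or survivin, fell from 261 to 54.3 FPKM, the mitotic kinase Aurkb from 43.4 to 8.14, Cdca8 from 75.3 to 17.2 and Cdk1 from 56.8 to 14.9. Some proliferation markers changed less: Mki67, the Ki-67 antigen, stood at 421 and 246 FPKM and was not called, and neither were Cenpf (55.1 and 42.0) and Smc4 (179 and 240). Among 28 cyclin, CDK and E2F genes 15 fell and 1 rose (9 and 1 length-adjusted). The activating E2F genes fell, E2f2 from 72.5 to 15.7, E2f1 from 8.94 to 2.47 and E2f3 from 5.50 to 2.33, and so did Ccna2 (172 to 48.7) and Ccnd3 (294 to 98.9). The cyclin Ccnd2 rose from 0.393 to 2.19 FPKM. Cdkn1b, the inhibitor p27, was at 61.2 and 49.6 and was not called. The maintenance methyltransferase Dnmt1 fell from 141 to 48.5 FPKM, while Dnmt3a (23.8 and 26.7) was not called.

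Replication-dependent histone genes, which package newly made DNA, had the lowest median of the 34 lists. Of 46 tested, 43 fell and all 46 had lower values in DP2, with a median log2 change of -2.36 (-1.50 length-adjusted). Hist1h4d fell from 2330 to 302 FPKM, Hist2h4 from 1726 to 255 and Hist1h4b from 458 to 52.7. Summed over the list, FPKM went from 35678 to 6679. These transcripts are short and lack poly(A) tails, and after length adjustment 13 of the 46 were called. Most of these genes had the smallest deposited p, where the SE is an upper bound and calls can be missed. Their reads can also map to near-identical copies, so single genes of this family are uncertain.

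Upstream sequence is shown for a few cell cycle genes, whose lists fell together, and for an immediate early gene. Of the 18 tested immediate early genes 7 rose, 1 fell and 10 were not called. The 250 bases upstream of each RefSeq gene start (GRCm38.p6) were searched on both strands. The E2F motif was taken as TTTCCCGC, TTTCGCGC, TTTGCCGC or TTTGGCGC, and the CHR motif of G2/M genes as TTTGAA. No E2F match overlapped a CHR match. The serum response element, the CArG box, was searched by its name's consensus. Of 27025 genes with such sequence, 2.16% had an E2F match, against 10 of 33 S phase genes and 3 of 46 G2/M genes. A CHR match was present in 18.3% of all genes, in 20 of 46 G2/M genes and in 6 of 33 S phase genes. A CArG box was present in 1.62% of all genes and in 2 of 18 immediate early genes. The 150 bases before the start of 6 genes are printed 5′ to 3′ on the gene's strand, with the matches in capitals. The first 3 are S phase genes with an E2F match, the next 2 are G2/M genes with CHR matches, of which Cdk1 also has an E2F match, and the last is an immediate early gene with a CArG box. In the order printed they lie at chr11:98908001-98908150 (+), chr19:38930840-38930989 (+), chr8:75109359-75109508 (+), chr10:69352913-69353062 (-), chr4:117178773-117178922 (-) and chr10:67537416-67537565 (+).
Cdc6: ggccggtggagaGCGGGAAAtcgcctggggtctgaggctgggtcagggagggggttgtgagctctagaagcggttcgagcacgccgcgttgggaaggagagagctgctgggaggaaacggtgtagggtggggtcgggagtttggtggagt
Hells: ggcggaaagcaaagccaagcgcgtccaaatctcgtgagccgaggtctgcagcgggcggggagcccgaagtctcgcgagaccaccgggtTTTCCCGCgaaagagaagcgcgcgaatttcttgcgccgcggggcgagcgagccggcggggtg
Mcm5: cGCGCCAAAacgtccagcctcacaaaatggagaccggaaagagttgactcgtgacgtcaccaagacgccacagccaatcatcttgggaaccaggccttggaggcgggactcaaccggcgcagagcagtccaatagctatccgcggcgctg
Cdk1: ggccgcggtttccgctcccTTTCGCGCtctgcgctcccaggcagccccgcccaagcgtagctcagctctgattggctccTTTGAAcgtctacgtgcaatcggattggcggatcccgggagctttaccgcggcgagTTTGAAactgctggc
Kif2c: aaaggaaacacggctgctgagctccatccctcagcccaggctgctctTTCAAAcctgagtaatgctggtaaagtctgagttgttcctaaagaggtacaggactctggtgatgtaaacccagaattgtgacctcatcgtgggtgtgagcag
Egr2: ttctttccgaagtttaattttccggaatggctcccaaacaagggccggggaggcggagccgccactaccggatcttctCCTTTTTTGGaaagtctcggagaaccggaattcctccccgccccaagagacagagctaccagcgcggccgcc
Hells, a chromatin remodeller of replicating cells, fell from 152 to 40.1 FPKM, Mcm5, a subunit of the replicative helicase, from 128 to 29.3, and Kif2c, a mitotic kinesin, from 36.8 to 9.61. A match describes letters in the sequence and no binding was measured.

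Ribosomal protein and respiratory chain genes were lower in DP2 as deposited and mostly not called after length adjustment. Of 79 cytosolic ribosomal protein genes 74 fell and 0 rose, with a median log2 change of -1.24. After adjustment 6 were called lower and the median was -0.48. Rps20 fell from 1009 to 334 FPKM (length-adjusted -1.33), and Rpl26 (43.9 and 64.4) was the gene with a higher value in DP2. Of 75 oxidative phosphorylation genes 57 fell and 0 rose, with a median of -1.05, and 4 were called lower after adjustment, where the median was -0.32. The ATP synthase subunit Atp5l fell from 257 to 103 FPKM (length-adjusted -1.30) and the complex I subunit Ndufb7 from 79.3 to 28.9 (-1.26). As deposited, Rps20, Atp5l and Ndufb7 stood at -1.60, -1.32 and -1.45. The adjustment, which takes the longest annotated transcript, thus moved these genes less than the medians of their lists. Whether that transcript is the one expressed was not tested. Of 18 housekeeping genes 7 fell and 0 rose, with a median of -0.71 that became -0.35 after adjustment. Of 39 Myc and ribosome biogenesis genes 7 fell (1 after adjustment), and of 20 aminoacyl tRNA synthetase genes 6 fell (2 after adjustment), led by Vars, from 26.5 to 7.78 FPKM. Over all tested genes 16.8% were called lower, and 4.7% after adjustment, so the counts of the Myc list are near the general share. In glucose uptake and glycolysis 7 of 17 genes fell (2 after adjustment), and Tpi1 (38.6 to 7.91) and the lactate transporter Slc16a1 (99.6 to 41.5) kept their calls.

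Sterol synthesis genes that were called were lower in DP2 except Pmvk. Of 24 genes of cholesterol synthesis and uptake 12 fell and 1 rose, or 7 lower and 1 higher after length adjustment, with a median log2 change of -0.90 (-0.62). The squalene epoxidase Sqle fell from 10.3 to 3.34 FPKM, Idi1 from 28.8 to 9.03, the fatty acid synthesis enzyme Acaca from 11.5 to 4.65 and the regulator Srebf2 from 46.7 to 22.2. Fads2, a fatty acid desaturase outside this list, fell from 13.3 to 1.67. Pmvk, the phosphomevalonate kinase of the same pathway, rose from 85.7 to 273 FPKM (1.67, SE up to 0.41).

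Of 25 interferon-stimulated and Irf genes 1 rose and 4 fell as deposited, while 3 were higher and 0 lower after length adjustment. Among all tested genes 5.56% were called higher and 16.8% lower (8.52% and 4.7% length-adjusted). The deposited counts of the interferon list are near these shares. So is the deposited count of lower genes in the DNA methylation and Polycomb list given below. Ifit1 rose from 2.92 to 7.94 FPKM, and Bst2 fell from 18.4 to 3.82 (length-adjusted -1.35, not called). Of 20 p53 target genes 2 rose, Gadd45b (1.03 to 3.95) and Perp (22.4 to 62.9), and 0 fell (3 and 0 length-adjusted). Of 17 Ets and Ikaros family genes Ikzf2, which encodes Helios, rose from 19.6 to 92.3 FPKM and Etv5 from 0.768 to 3.00, and Ets2 (247 to 114) and Elf4 (27.7 to 16.3) fell as deposited but were not called after adjustment (3 higher and 0 lower). Hhex, a homeobox factor of early progenitors, rose from 54.8 to 208 FPKM. Of 13 nuclear receptor genes Rarb rose from 2.18 to 6.31 FPKM and 4 fell, of which 0 were called after adjustment. Of 17 DNA methylation and Polycomb genes 2 rose and 3 fell (1 and 2 length-adjusted), and of 12 heat shock and stress genes 8 fell (0 after adjustment), with Hspa8 from 1898 to 842 FPKM. Of 21 histone deacetylases and corepressor subunits 0 rose and 2 fell, Hdac1 (167 to 75.4) and Mta1 (42.1 to 18.7), and both lost their call after adjustment. Over all tested genes 16.8% were called lower as deposited, a larger share than in this list. Hdac3 stood at 43.2 FPKM in WT DP1 and 28.5 in WT DP2 and was not called.

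The WT change was set against the change between the same stages in Hdac3KO cells, to show where they differ. Hdac3 itself stood at 11.7 FPKM in Hdac3KO DP1 and 13.999 in Hdac3KO DP2, in a separate deposited comparison whose levels are only set side by side with those of WT. Xist was at 209 FPKM in Hdac3KO DP1 and 127 in Hdac3KO DP2, while Ddx3y was at 0.191 and 0.629, so genotype and sex cannot be told apart in this comparison. The 2 stage tables use different samples. Of the 603 genes called higher in WT, 106 (17.6%) were also called higher in Hdac3KO, which is 58.2% of the 182 called there. Of the 1818 called lower in WT, 355 (19.5%) were called lower in Hdac3KO, which is 74.6% of its 476. A test of the difference of the log2 changes over 9969 genes called 106 (1.06%) with a more positive change in WT and 206 (2.07%) with a more negative one. With the length trend removed in each table these became 116 (1.18% of 9841) and 11 (0.112%). Of the 106 and 206, 68 and 9 were also called in that version. As deposited, 32 of 79 ribosomal protein genes and 11 of 75 oxidative phosphorylation genes were called with a more negative change in WT. After length adjustment 0 genes of either list were.

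The cell cycle and selection lists were compared between genotypes. The S phase list had a median length-adjusted log2 change of -1.44 in WT and -1.55 in Hdac3KO, and the normal test of the difference called 0 of its 44 genes, of which 6 as deposited and 4 after length adjustment had an unadjusted p under 0.05. The G2/M list had length-adjusted medians of -1.17 in WT and -1.78 in Hdac3KO, 2 of its 52 genes were called with a more positive change in WT by each version (Smc4 and Kif20b), and 9 as deposited and 12 after adjustment had an unadjusted p under 0.05. Cdc6 fell in both, from 15.9 to 2.65 FPKM in Hdac3KO. Itm2a rose from 6.40 to 76.4 FPKM in Hdac3KO and Gimap4 from 9.36 to 88.8, and the difference of their changes was not called. Cd53 rose from 25.7 to 84.2 FPKM in Hdac3KO, and its difference was not called either. These genes and many of the S phase and G2/M lists had the smallest p in WT, so their SE is an upper bound. The test of the difference can miss such genes, and a missing call does not show equal change. The selection list had a length-adjusted median of 2.37 in WT and 0.72 in Hdac3KO. Each median is over the members tested in that genotype, 24 in WT, so the medians cover different genes and their gap is no like-for-like difference. Tnfrsf9 and Tagap, which rose in WT, were among those not tested in Hdac3KO. Of its 18 members tested for both genotypes, 6 as deposited and 8 after adjustment had an unadjusted p of the difference under 0.05. Bcl2 was called different as deposited, at 3.67 and 4.22 FPKM in Hdac3KO (Benjamini-Hochberg adjusted p of the normal test 0.0399), and not after length adjustment (0.0697). Bcl2l1 and Bad had a more negative change in WT by the same test as deposited (adjusted p 0.0499 and 0.0303). In Hdac3KO DP1 and DP2, Bcl2l1 stood at 83.0 and 73.3 FPKM and Bad at 6.24 and 7.82. Neither was called after length adjustment (0.360 and 0.229). Il7r (0.130 and 0.595 FPKM), Btla (0.443 and 3.25), Chl1 (0.150 and 1.07) and Folr4 (0.175 and 0.432) were not tested in the Hdac3KO table, so their difference was not tested. Of 796 genes of the 34 lists tested for both genotypes, 6 were called by both versions of the test. Rasa1, Bmi1, Rarb, Smc4 and Kif20b had a more positive change in WT, and the pro-apoptotic Bmf a more negative one: 20.3 and 11.1 FPKM in WT DP1 and DP2 against 8.39 and 14.996 in Hdac3KO.

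**Figure D5:**
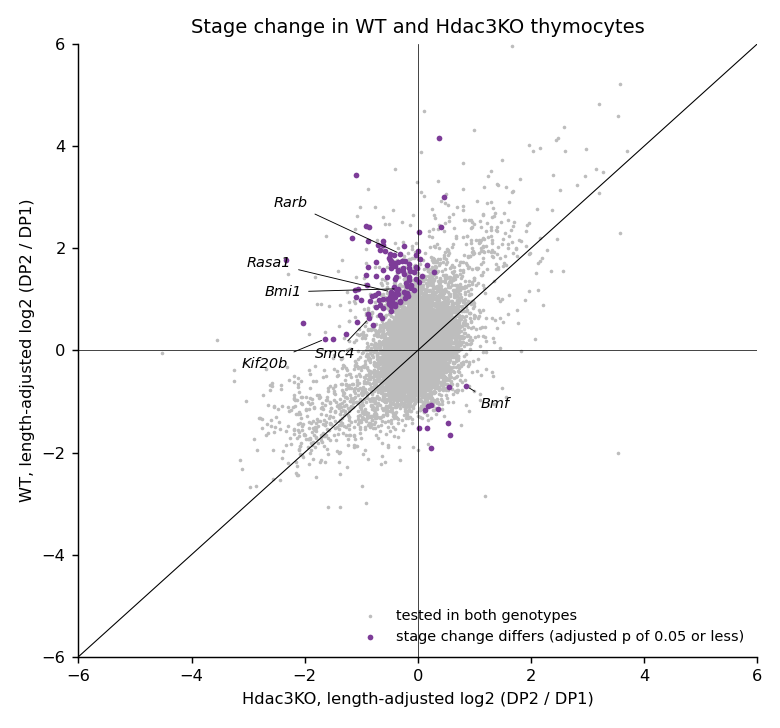
Length-adjusted log2 ratio of DP2 to DP1 in Hdac3KO (x axis) and WT (y axis) for genes tested in both tables; purple points are genes whose change differed, the diagonal marks equal change, and 2 genes lie beyond the axes. Most purple points lie above the diagonal, with Bmf among the 11 below it.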

How the data were processed

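The deposited tables of WT DP1 against WT DP2 and of Hdac3KO DP1 against Hdac3KO DP2 were used. Per the submitters' processing notes, the tools were Cuffdiff 2.1.1, TopHat2 2.0.11 and Trimmomatic 0.32 on the build mm10; the gene annotation is not given in the sources used here. Per the file headers the authors give 1 FPKM per gene and group with a p-value and q-value from Cuffdiff; counts and values per sample were not used here, so depth is unknown and no interval of counting error is given. The log2 ratio was computed from the FPKM values, with no pseudocount, because the deposited ratio column was damaged by a spreadsheet. The SE was the log2 ratio over the normal quantile of the deposited p-value. The length adjustment subtracted a lowess curve (fraction 0.3, statsmodels 0.14.6) on the log10 length of the longest GENCODE M21 transcript, fitted on genes that reached 10 FPKM in both groups. Of 10851 tested genes 98.7% had a length. A normal, two-sided test with Benjamini-Hochberg adjustment over all tested genes followed, also for the difference between genotypes (SciPy 1.17.1), in code tested on simulated data. Entries that join several genes (85) and symbols turned into dates (25) were not matched to lengths. Named genes were, per direction, the 12 called genes with the largest length-adjusted change whose higher value reached 5 FPKM, with the same sign before and after adjustment, no value of 0, and no small RNA, unnamed locus or joined entry. Up to 5 called members per list and direction, and defining members, were added. A few genes are not reported here. Members and lists were chosen with earlier results of these data known; lists share some genes. Alternatives were other thresholds, centring, length, GC and filter settings.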

Additional observations from a re-analysis of the deposited data

Results flagged for a closer look

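In 6 genes of the lists the stage change differed between WT and Hdac3KO cells by the test of the difference itself, both as deposited and after removal of the length trend in each table. The log2 difference (WT minus Hdac3KO) was -1.70 for Bmf, with an SE of 0.37. It was 1.30 for Smc4, a condensin subunit (179 and 240 FPKM in WT DP1 and DP2, 294 and 161 in Hdac3KO), and 1.84 for the mitotic kinesin Kif20b (41.7 and 46.5 in WT, 54.2 and 16.8 in Hdac3KO). It was 1.27 for the Polycomb gene Bmi1 (8.83 and 16.7, against 10.6 and 8.34), 1.46 for the Ras inhibitor Rasa1 (14.97 and 29.3, against 35.6 and 25.5) and 1.82 for the retinoic acid receptor Rarb (2.18 and 6.31, against 9.61 and 7.87). The Benjamini-Hochberg adjusted p of this normal test, length-adjusted, ran from 0.00278 for Rasa1 to 0.0303 for Kif20b. Xist and the Y-linked genes differ between the genotypes, and their part in these values was not tested.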

How the results depend on the processing

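The table gives 1 value per group, so p-values rest on the authors' test, and depth limits cannot be set. The counts of genes higher and lower in DP2 were 603 and 1818. They became 290 and 931 at a q of 0.01, 1181 and 699 with changes centred on the median gene, 907 and 500 with the length trend removed, 912 and 511 with a lowess fraction of 0.7, and 1003 and 604 with the median in place of the longest transcript, a setting chosen after seeing the data. At least a 2-fold change left 1159 lower genes, removal of the GC trend 497, and of length and then GC 385. Multiplying the SE by 1.5 left 0 and 0 genes by the normal test, since the deposited p has a floor, with 393 and 1257 at an unadjusted p under 0.05. The other settings for these counts stayed within 1.5 times of them. Genes whose stage change was more positive or more negative in WT numbered 106 and 206, and 347 and 24 after centring each table; the length trend removed left 11 more negative, and an SE 1.5 times as large 0 and 0 (144 and 329 at an unadjusted p under 0.05). The median of the histone deacetylase and corepressor list, -0.39, became 0.10 with the GC trend removed. Over members that reached 5 FPKM in either group, the medians of the selection, inhibitory receptor and CD8 lineage lists, 2.17, 1.22 and -0.25, became 1.41, 0.47 and -1.01, and those of the homing and cytokine receptor lists, 0.17 and 0.14, became -0.14 and -0.03. A pseudocount of 1 FPKM gave 1.26 for the selection list. Of 185 named genes, 64 lost their call with the length trend removed, 72 with the GC trend and 46 with centring, and 0 changed direction. Apart from the construction named, the cause was not tested. No paired analysis was possible because the deposited columns hold 1 value per group; for the same reason leaving out each replicate was not run.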

Other observations

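Rn45s, the 45S pre-ribosomal RNA, was listed at 0 FPKM in WT DP1 and at 4234 in WT DP2 and was not tested, while the Hdac3KO groups had 5260 and 5287. Genes with symbols of small RNAs gave 28.0% of the summed FPKM in WT DP1 and 29.7% in WT DP2. Beside Cd40lg, 8 genes were called with a value of 0 in one group: Cryba1 and Gm14718 were listed at 0 in DP1, and AA467197, Zswim7, Rprl1, Scarna2, Mir703 and Mir5109 at 0 in DP2. Outside the lists, Cd302, a C-type lectin, stood at 0.675 and 4.50 FPKM in WT DP1 and DP2 and at 7.61 and 3.66 in Hdac3KO, and Cldn4, a claudin, at 11.6 and 2.47 against 11.5 and 17.4. These 2 genes were chosen after their values were seen.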
